A study of Mus musculus with 36 samples.

Results

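The genes described here are those of cholesterol and fatty acid synthesis and of cholesterol efflux in mouse dendritic cells (DCs): 34 genes taken by name, from a list drawn up with earlier results of these data known. They comprise the SREBP regulators, the mevalonate enzymes, the sterol enzymes, a sterol carrier, the fatty acid enzymes and the efflux genes controlled by the liver X receptor. Of these, 33 had a transcript cluster of their own on the array, among 19938 genes tested. Acat2, cytosolic acetoacetyl-CoA thiolase, had none and is only named. All 33 had an average level above the 25th percentile of genes, and 32 lay above the median gene. The exception was Nr1h3, which averaged just under it.

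The DCs were grown for 6 days from the bone marrow of young adult Balb/c mice, with 100 ng/ml of the growth factor GM-CSF in the medium. Some cultures received 200 nM soluble recombinant human thrombomodulin (sTM, the extracellular part of the protein) from day 4 on, and the others were left untreated. On day 6 an antibody to thrombomodulin (TM) and magnetic beads divided cultures into TM+ and TM- DCs, each with a purity above 93%. This gave 6 arrays of TM+ DCs from sTM cultures, 4 of TM+ DCs from untreated cultures, 6 of TM- DCs from sTM cultures and 4 of TM- DCs from untreated cultures. Unsorted DCs gave 8 arrays from sTM cultures and 8 from untreated ones. Experiments 3 and 4 held all 4 sorted groups with 2 arrays each, experiment 2 held sorted DCs of sTM cultures only, and the unsorted arrays came from experiments 1, 2 and 3. The labels call arrays biological replicates without stating separate cultures or animals, so the p-values measure the spread between these arrays.

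Cells make cholesterol from acetyl-CoA through mevalonate and squalene. When sterols in the endoplasmic reticulum run low, SCAP carries the transcription factor SREBP-2 (gene Srebf2) to the Golgi, where it is cleaved and then activates nearly every gene of the route, while INSIG1 holds SCAP back when sterols are plentiful. SREBP-1 (Srebf1) acts mainly on the fatty acid enzymes. Oxysterols that accumulate when cholesterol is in excess activate the liver X receptor (Nr1h3 encodes its alpha form), which induces the exporters Abca1 and Abcg1, so that synthesis and efflux usually run in opposite directions.

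Promoter sequence from RefSeq (assembly GRCm38.p6; 250 bases before to 50 bases after the start of the gene) was at hand for 25 of the 34 genes. The windows below belong to the 5 genes with such a window that fell with sTM in TM+ DCs, and to Abca1, the member that differed most in the other direction between the fractions. Srebf2 lies at chr15:82147019-82147318, Insig1 at chr5:28071162-28071461, Hmgcs1 at chr13:119690101-119690400, Idi1 at chr13:8885356-8885655 and Lss at chr10:76531355-76531654, all on the plus strand, and Abca1 at chr4:53159846-53160145 on the minus strand. Each is written 5′ to 3′ on the strand of its gene, and capitals mark a match on either strand to TCACNCCAC, a form of the sterol regulatory element bound by SREBP, to CCAAT, the NF-Y site, or to CACGTG, an E-box.
Srebf2: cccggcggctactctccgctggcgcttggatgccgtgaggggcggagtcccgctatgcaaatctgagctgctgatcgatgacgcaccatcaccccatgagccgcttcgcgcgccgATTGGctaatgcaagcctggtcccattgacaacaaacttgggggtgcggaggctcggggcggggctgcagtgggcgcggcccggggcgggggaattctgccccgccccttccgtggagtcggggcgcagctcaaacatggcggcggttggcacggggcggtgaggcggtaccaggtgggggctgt
Insig1: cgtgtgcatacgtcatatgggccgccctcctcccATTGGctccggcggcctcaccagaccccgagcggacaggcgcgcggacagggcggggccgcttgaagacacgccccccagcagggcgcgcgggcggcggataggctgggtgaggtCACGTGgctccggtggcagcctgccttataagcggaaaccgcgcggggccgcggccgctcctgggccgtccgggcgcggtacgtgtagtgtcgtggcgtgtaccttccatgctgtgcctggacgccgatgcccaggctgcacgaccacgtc
Hmgcs1: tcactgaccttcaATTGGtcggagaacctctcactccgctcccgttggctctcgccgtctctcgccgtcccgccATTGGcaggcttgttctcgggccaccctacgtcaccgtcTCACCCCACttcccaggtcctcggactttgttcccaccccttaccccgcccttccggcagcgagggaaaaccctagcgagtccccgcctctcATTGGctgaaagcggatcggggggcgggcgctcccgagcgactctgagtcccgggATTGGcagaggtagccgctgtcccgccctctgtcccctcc
Idi1: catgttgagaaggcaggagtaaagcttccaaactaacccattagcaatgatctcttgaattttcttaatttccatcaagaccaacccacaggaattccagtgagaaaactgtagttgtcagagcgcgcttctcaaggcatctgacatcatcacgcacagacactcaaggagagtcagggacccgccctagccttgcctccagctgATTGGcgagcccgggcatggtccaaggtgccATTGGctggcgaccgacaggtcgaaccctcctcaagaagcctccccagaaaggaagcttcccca
Lss: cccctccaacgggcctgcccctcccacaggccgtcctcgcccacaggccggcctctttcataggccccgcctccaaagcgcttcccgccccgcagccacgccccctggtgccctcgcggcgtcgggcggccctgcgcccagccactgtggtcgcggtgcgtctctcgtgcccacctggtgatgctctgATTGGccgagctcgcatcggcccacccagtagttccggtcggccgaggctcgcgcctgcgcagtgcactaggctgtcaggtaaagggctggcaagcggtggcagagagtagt
Abca1: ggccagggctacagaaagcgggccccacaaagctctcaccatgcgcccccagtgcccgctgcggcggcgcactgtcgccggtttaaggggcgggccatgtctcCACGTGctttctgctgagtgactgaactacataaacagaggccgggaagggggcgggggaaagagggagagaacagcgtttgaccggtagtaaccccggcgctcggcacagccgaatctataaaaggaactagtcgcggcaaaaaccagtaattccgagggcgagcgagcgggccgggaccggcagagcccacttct
Hmgcs1 was the only one of the 25 windows with TCACNCCAC, 137 to 129 bases before the start, against 1.24% of 32851 windows of all genes. CCAAT stood in 20 of the 25 windows, against 37.4% of all windows. Among the members it was found in 18 of 20 regulator and sterol synthesis genes, 1 of 2 fatty acid genes and 1 of 3 efflux genes. CACGTG stood in 6 of the 25, Abca1 and Insig1 among them, against 7.15% of all windows. No match overlapped another in the 6 windows shown. A match describes these letters only and was not tested as a binding site.

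A list of DC markers gave signal in every group, carried by bright genes such as Csf2rb (average log2 level 13.22). Flt3 of the same list averaged 6.37, below the lymphocyte marker Cd3e at 6.86, and Zbtb46 averaged 7.31. Zbtb46 reached at most 7.19 in TM+ DCs and was at least 7.26 in TM- DCs. The macrophage markers Adgre1 (12.32) and Cd14 (12.22) were also bright, so the sums do not tell DCs from macrophages. The summed intensity of 9 DC markers, Itgax, Itgam and the class II genes among them, ran between 25932 and 42930, and that of 6 lymphocyte markers between 236 and 363. Thbd, which encodes TM itself, was dim on all 36 arrays and was not called between the fractions (log2 difference 0.24 ± 0.12, limma adjusted p = 0.12), so the transcript does not check the sort. The array of TM- DCs numbered 2 in experiment 3 from an sTM culture stood apart. Its average log2 level over all genes was 7.42, where the other arrays lay between 7.18 and 7.29. Where leaving it out changed the number of members called, the count without it is given as well. Averages within experiment 3 include it. Differences below are on the log2 scale with their standard error, and a gene is called where its limma p, adjusted by the Benjamini-Hochberg method over 19938 genes, is under 0.05. Since the samples are bulk, more cells of a type and more RNA per cell cannot be told apart.

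TM+ DCs were compared with TM- DCs to see how the fractions differ. Averaged over both kinds of culture, 21 of the 33 members were higher in TM+ DCs and 1 was lower, while 18.6% of all genes were called higher and 18.7% lower. The median difference was 0.30 over the members and -0.08 over all genes. The fatty acid enzymes stood highest with 5 of 5 called and a median of 1.06, followed by the sterol enzymes with 10 of 11 called and a median of 0.59, and the mevalonate enzymes with 4 of 7 and 0.26. Of the 4 regulators only Srebf2 was called (0.20 ± 0.067, adjusted p = 0.0279). None of the 5 efflux genes was higher, and Abca1 was lower. The 11 members without a call were Srebf1, Insig1, Scap, Mvd, Ggps1, Pmvk, Sc5d, Abcg1, Nr1h3, Npc1 and Mylip. Without the TM- array that stood apart, 22 members were higher and 1 was lower.

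**Figure D1:**
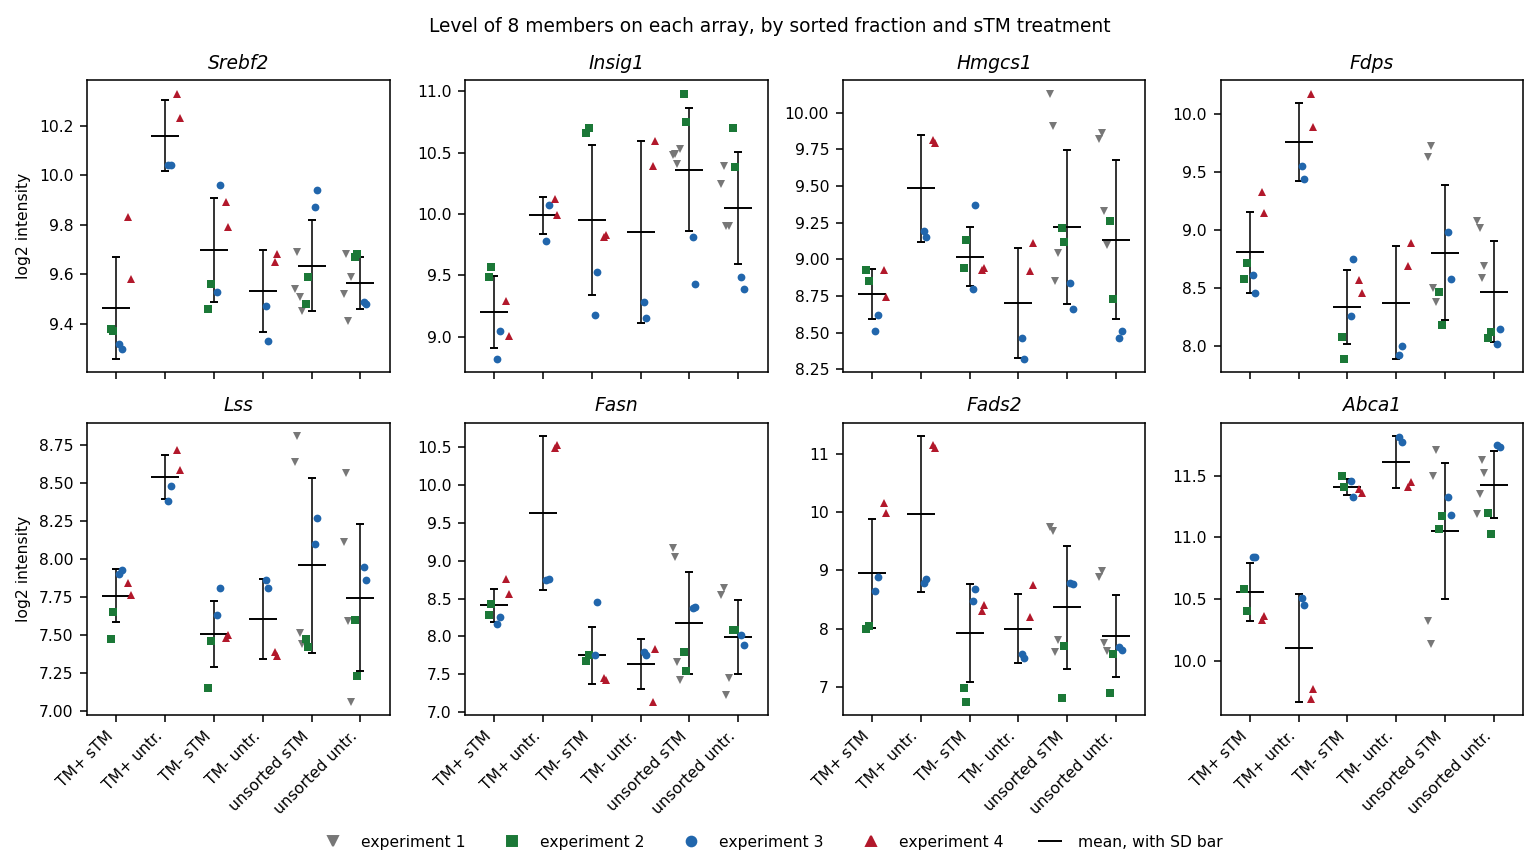
Log2 intensity (y axis) of 8 members on each of the 36 arrays, by fraction and treatment (x axis); each point is an array, its color and shape mark the experiment, and lines with bars give the mean and SD of the group. Srebf2 and Lss in untreated TM+ DCs lie above every other sorted array, Fasn and Fads2 in untreated TM+ DCs split by experiment, and Abca1 separates TM+ from TM- arrays.

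In the fatty acid arm, Fads2, the delta-6 desaturase of polyunsaturated fatty acids, had a lowest, median and highest level of 7.99, 8.76 and 10.16 in TM+ DCs of sTM cultures, against 6.75, 8.35 and 8.68 in TM- DCs of the same cultures. In untreated cultures it read 8.78, 8.85, 11.14 and 11.10 in TM+ DCs, against 7.56, 7.49, 8.20 and 8.74 in TM- DCs. The untreated fractions did not overlap, and the 2 untreated TM+ arrays of experiment 4 stood far above the 2 of experiment 3. Over both kinds of culture Fads2 was higher by 1.49 ± 0.25 (2.82-fold, adjusted p = 6.26e-05). Fasn, fatty acid synthase, read 8.74, 8.76, 10.49 and 10.52 in untreated TM+ DCs, against 7.80, 7.76, 7.14 and 7.83 in untreated TM- DCs. In sTM cultures it read 8.16, 8.36 and 8.76 (lowest, median, highest) in TM+ DCs and 7.42, 7.72 and 8.45 in TM- DCs, where only the TM- array that stood apart reached the TM+ range. The combined difference of Fasn was 1.33 ± 0.20 (adjusted p = 2.74e-05). Scd1 (1.03 ± 0.15) and Scd2 (0.42 ± 0.10), the stearoyl-CoA desaturases, and Fads1 (1.06 ± 0.12), the delta-5 desaturase, were also higher, with adjusted p of 1.25e-05, 0.00271 and 7.39e-07. In all 5 pairings of the fractions within an experiment and a treatment, each of the 5 fatty acid genes averaged higher in TM+ DCs.

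In the mevalonate arm, Fdps, farnesyl diphosphate synthase, read 9.55, 9.44, 10.18 and 9.89 in untreated TM+ DCs, against 7.92, 8.0, 8.69 and 8.89 in untreated TM- DCs. In sTM cultures its lowest, median and highest levels were 8.46, 8.67 and 9.33 in TM+ DCs and 7.89, 8.36 and 8.75 in TM- DCs. The untreated fractions were separate and the sTM fractions overlapped. Its combined difference was 0.93 ± 0.11 (1.91-fold, adjusted p = 7.46e-07). Idi1, isopentenyl diphosphate isomerase, read 8.63, 8.57, 9.88 and 9.76 in untreated TM+ DCs, against 8.03, 7.68, 8.77 and 8.44 in untreated TM- DCs, and in sTM cultures 7.93, 8.28 and 8.79 in TM+ DCs and 8.12, 8.38 and 9.03 in TM- DCs. Over all experiments Idi1 thus overlapped between the fractions in both kinds of culture. Within experiments 3 and 4 its untreated fractions were separate, with TM+ DCs higher. Its combined difference was called (0.39 ± 0.14, adjusted p = 0.0284) and turned to -0.09 with array weights. Mvk, mevalonate kinase (0.30 ± 0.077, adjusted p = 0.00396), and Hmgcs1, HMG-CoA synthase (0.26 ± 0.096, adjusted p = 0.0358), completed the calls of this arm. The Hmgcs1 call was lost in 18 of 31 alternative settings, and that of Idi1 in 9 besides its reversal with array weights.

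In the sterol arm, Nsdhl, which removes the C4 methyl groups of lanosterol products, read 9.45, 9.56, 10.21 and 10.08 in untreated TM+ DCs, against 8.78, 8.57, 8.42 and 8.56 in untreated TM- DCs. In sTM cultures it read 8.70, 9.37 and 9.62 (lowest, median, highest) in TM+ DCs and 8.19, 8.51 and 9.13 in TM- DCs. Only the sTM fractions overlapped over all experiments, and within each experiment they were separate. The combined difference was 0.98 ± 0.11 (adjusted p = 5.51e-07). Dhcr7, the last reductase of the route, read 8.05, 8.13, 8.77 and 8.60 in untreated TM+ DCs, against 7.10, 7.21, 7.16 and 7.27 in untreated TM- DCs. In sTM cultures it read 7.78, 8.08 and 8.39 in TM+ DCs and 6.95, 7.11 and 8.06 in TM- DCs, with the overlap coming from experiment 2, and the combined difference was 0.94 ± 0.12 (adjusted p = 1.84e-06). The other 8 sterol genes called higher ran between 0.27 (Sqle, squalene epoxidase) and 0.93 (Cyp51, lanosterol demethylase), and Sc5d alone missed the threshold. The call of Sqle rested on experiment 4, without which its difference was 0.00 (adjusted p = 0.994). Fdft1, squalene synthase, had the least stable call of this arm (0.30, adjusted p = 0.0397), which was lost in 21 of 31 alternative settings, with adjusted p up to 0.587. Stard4, a cytosolic sterol carrier, read 8.28, 8.39, 8.84 and 8.69 in untreated TM+ DCs, against 7.66, 7.74, 7.83 and 7.74 in untreated TM- DCs. In sTM cultures its lowest, median and highest levels were 7.76, 8.21 and 8.38 in TM+ DCs and 7.66, 7.86 and 8.01 in TM- DCs. Its untreated fractions were separate and its sTM fractions overlapped, and it was higher by 0.55 ± 0.073 (adjusted p = 5.29e-06).

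Abca1, which exports cholesterol to lipid-poor apolipoprotein, went the other way. It read 10.33, 10.49 and 10.84 (lowest, median, highest) in TM+ DCs of sTM cultures, against 11.33, 11.40 and 11.50 in TM- DCs. In untreated cultures it read 10.51, 10.45, 9.69 and 9.77 in TM+ DCs, against 11.81, 11.77, 11.41 and 11.45 in TM- DCs. Every TM+ array lay below every TM- array, and the combined difference was -1.18 ± 0.078 (2.27-fold lower, adjusted p = 5.33e-10). Within the 5 pairings of fractions by experiment and treatment it ranged from -1.71 to -0.56. The other efflux genes did not share this. Abcg1, the exporter to mature lipoproteins, read 11.39 and 11.33 in untreated TM+ DCs of experiment 3 and 9.94 and 9.91 in those of experiment 4, against 10.33, 10.27, 10.21 and 10.34 in untreated TM- DCs. In sTM cultures it read 10.41, 10.50 and 10.96 in TM+ DCs and 9.92, 10.69 and 10.95 in TM- DCs. It lay above the TM- arrays in 1 untreated experiment and below them in the other (0.23 ± 0.14, adjusted p = 0.184). Npc1, which releases cholesterol from lysosomes (-0.16), Mylip, a ubiquitin ligase induced by the liver X receptor (0.08), and Nr1h3 (0.10) were not called.

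Among the regulators, Insig1 and Scap had the largest combined differences, neither of them called. Insig1 read 9.78, 10.07, 10.12 and 9.99 in untreated TM+ DCs, against 9.28, 9.15, 10.39 and 10.59 in untreated TM- DCs, and in sTM cultures 8.82, 9.17 and 9.57 (lowest, median, highest) in TM+ DCs and 9.18, 9.82 and 10.70 in TM- DCs. Over all experiments the fractions overlapped in both kinds of culture, though within each experiment they were separate. In sTM cultures Insig1 was lower in TM+ DCs in each experiment. In untreated cultures it was higher there in experiment 3 (0.71) and lower in experiment 4 (-0.44). The difference was called in sTM cultures only (-0.75 ± 0.18, adjusted p = 0.00543). Scap read 8.81, 8.77, 9.13 and 8.95 in untreated TM+ DCs, against 8.61, 8.67, 8.28 and 8.45 in untreated TM- DCs, with no overlap (0.41 ± 0.14, adjusted p = 0.0318). In sTM cultures the lowest, median and highest Scap levels were 8.63, 8.75 and 8.78 in TM+ DCs and 8.32, 8.79 and 9.05 in TM- DCs, a difference of 0.00 ± 0.11.

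Taken by culture, the difference between the fractions had more calls without sTM. In untreated cultures 22 members were higher in TM+ DCs and 1 was lower, where 13.2% of all genes were higher and 7.93% lower, and the median was 0.63 over the members and -0.06 over all genes. All 23 regulator, mevalonate, sterol and transport genes had an estimate above 0 there, as did 7777 of all 19938 genes. In sTM cultures 9 members were higher and 3 lower, where 11.6% of all genes were higher and 12.4% lower, and the medians were 0.12 and -0.09. Without the TM- array that stood apart, the sTM counts were 11 higher and 2 lower. The share of all genes called without that array is not given here. The genes called higher in both were Fdps, Tm7sf2, Nsdhl, Ebp, Dhcr7, Stard4, Scd1, Fads1 and Fads2, and 12 more were called in untreated cultures only. Srebf2 was higher in TM+ DCs of untreated cultures (0.63 ± 0.10, adjusted p = 0.00016) and lower in TM+ DCs of sTM cultures (-0.24 ± 0.085, adjusted p = 0.0475). The call in untreated cultures held in all 31 alternative settings, and that in sTM cultures was lost in 22 of 31, with adjusted p up to 0.297. Settings that left out 1 array kept its partner from the same group and experiment. These counts do not show stability over independent cultures. Abca1 was lower in both (-0.85 ± 0.099 with sTM and -1.51 ± 0.12 without).

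**Figure D2:**
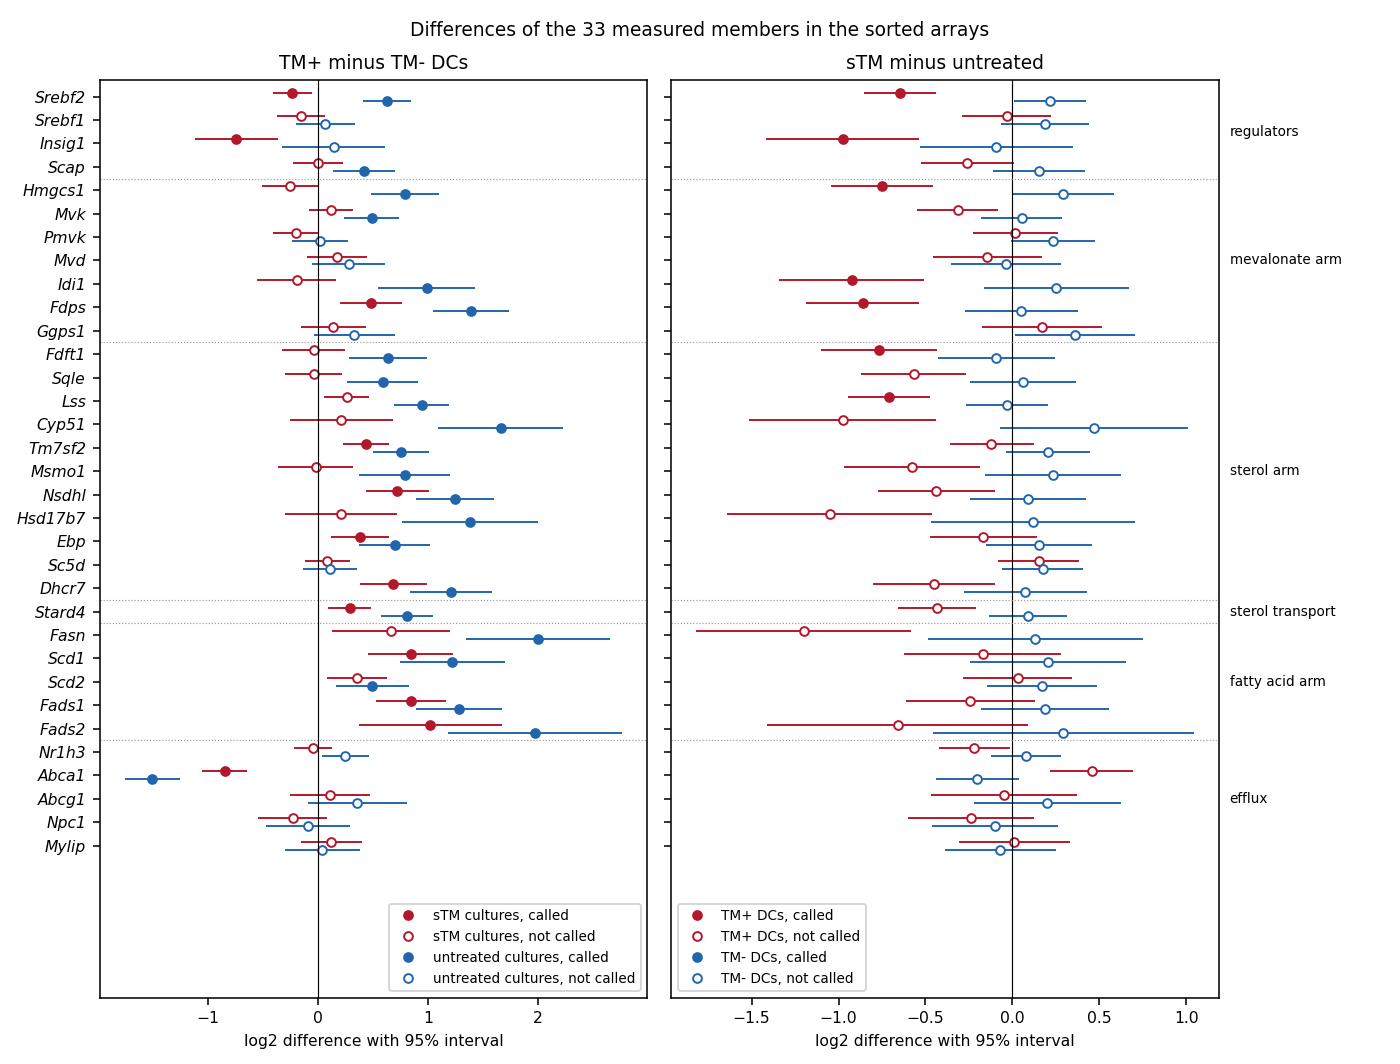
Log2 differences (x axis) with 95% intervals for the 33 measured members (rows, grouped by role): TM+ minus TM- DCs on the left and sTM minus untreated on the right, with filled points for called genes. On the left 22 members are called higher in untreated cultures and 9 in sTM cultures; on the right the 7 called members all lie below 0 in TM+ DCs, and none is called in TM- DCs.

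Within experiments the excess of higher members held in most pairings. In untreated cultures 31 of 33 members averaged higher in TM+ DCs in experiment 3, where 56.8% of all genes did, and 25 of 33 in experiment 4, where 35.8% did. In sTM cultures the counts were 21, 14 and 24 of 33 in experiments 2, 3 and 4, where 46.6%, 32.0% and 38.9% of all genes averaged higher. Without experiment 4, 13 members were called higher over both kinds of culture, with a member median of 0.32, and 2 in sTM cultures, with a median of 0.06. The medians over all genes without experiment 4 were -0.03 and -0.08. With each array centered on its 75th percentile, which put the median of all genes at -0.20 instead of -0.08, 15 members were higher and 2 lower while the split over all genes became 14.8% higher and 45.3% lower. The same centering gave 20 higher and 1 lower members in untreated cultures (9.83% and 14.6% of all genes) and 7 higher and 4 lower in sTM cultures (10.02% and 21.9%).

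Other genes of these routes did not move as a block. Of 13 further synthesis genes measured, 6 were higher in TM+ DCs and 3 lower. Elovl5, a fatty acid elongase, was higher by 0.83 ± 0.10 (adjusted p = 1.85e-06), while Me1, malic enzyme, which supplies NADPH (-1.60 ± 0.16), Rdh11, a retinol dehydrogenase (-0.74 ± 0.086), and Insig2, the second SCAP anchor (-0.74 ± 0.098), were lower, each with an adjusted p of at most 4.43e-06. Of 13 further cholesterol handling genes, 8 were higher and 1 was lower. Cyp27a1, sterol 27-hydroxylase (0.79 ± 0.087), Lpcat3, a phospholipid acyltransferase induced by the liver X receptor (0.90 ± 0.12), and Lipa, lysosomal acid lipase (0.39 ± 0.086), were among the higher ones, and Npc2, which hands cholesterol to NPC1 in lysosomes, was the lower one (-0.62 ± 0.082).

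Markers of other cells and of division moved with the same comparison. All 8 cell division genes were higher in TM+ DCs, with a median difference of 2.82, and their summed intensity was 3573 to 16434 in TM+ DCs of sTM cultures and 9818 to 17023 in those of untreated cultures, against 907 to 3617 and 2531 to 3204 in TM- DCs of the same cultures. Of 11 granulocyte markers 7 were higher and 1 was lower; their sums of 18134 to 28782 in TM+ DCs overlapped those of 15152 to 23908 in TM- DCs, and none of them was at 0. Of 7 mast cell, basophil and eosinophil markers 2 were higher, of 6 macrophage markers 3 were higher and 2 lower, and 7 of 9 interferon-stimulated genes were lower. Of the 9 DC markers 6 were higher and 1 was lower, with sums of 35105 to 42930 in TM+ DCs and 25932 to 35418 in TM- DCs. The part of these genes in the differences of the members was not tested.

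The second question was how each fraction of sTM cultures differed from the same fraction of untreated cultures. The paper reports a larger share of TM+ DCs with sTM, so the TM+ fractions need not hold the same cells. A gene that fell was lower in the fraction from sTM cultures, and a change within the same cells was not tested. In TM+ DCs, sTM cultures had 7 members lower and 0 higher than untreated cultures, where 0.471% of all genes were called lower and 0.381% higher. The 7 were Srebf2 and Insig1 of the regulators, Hmgcs1, Idi1 and Fdps of the mevalonate enzymes, and Fdft1 and Lss of the sterol enzymes. The median over the members was -0.31, against -0.02 over all genes, and it was -0.57 over the 11 sterol enzymes, -0.24 over the fatty acid enzymes and -0.05 over the efflux genes. Averaged over both fractions, 0 members were called either way, where 0.01% of all genes were higher and 0.00502% lower.

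Srebf2 had levels of 9.30, 9.37 and 9.83 (lowest, median, highest) in TM+ DCs of sTM cultures, against 10.04, 10.04, 10.33 and 10.23 in untreated TM+ DCs. All 6 sTM arrays lay below all 4 untreated arrays. Srebf2 fell by 0.65 ± 0.099 (1.57-fold, adjusted p = 0.0042), and it kept its call in all 31 alternative settings, with adjusted p up to 0.0411. Settings that left out 1 array kept its partner from the same group and experiment, and none averaged such partners. Only experiments 3 and 4 held both treatments of TM+ DCs. Stability over independent cultures was thus not tested. Within experiments it changed by -0.73 in experiment 3 and -0.58 in experiment 4.

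Lss, lanosterol synthase, had levels of 7.47, 7.80 and 7.93 in TM+ DCs of sTM cultures, against 8.38, 8.48, 8.72 and 8.59 in untreated TM+ DCs, again without overlap, and fell by 0.71 ± 0.11 (adjusted p = 0.006). Fdps, at 8.46, 8.67 and 9.33 against the untreated 9.55, 9.44, 10.18 and 9.89, did not overlap either and fell by 0.86 ± 0.16 (adjusted p = 0.0131). Both enzymes were thus below every untreated array on each sTM array. Hmgcs1 had 8.51, 8.79 and 8.93 in sTM cultures, against 9.19, 9.15, 9.81 and 9.79 in untreated ones, and fell by 0.75 ± 0.14 (adjusted p = 0.0142). Fdft1 had 8.98, 9.16 and 9.93 in sTM cultures, against 9.95, 9.94, 10.47 and 10.68 in untreated ones, and fell by 0.77 ± 0.16 (adjusted p = 0.0273). For Fdft1 the margin between the highest sTM array and the lowest untreated array was 9.93 against 9.94. Insig1 had 8.82, 9.17 and 9.57, against 9.78, 10.07, 10.12 and 9.99, and fell by 0.98 ± 0.21 (adjusted p = 0.0303). Idi1 had 7.93, 8.28 and 8.79, against 8.63, 8.57, 9.88 and 9.76, with sTM arrays of experiment 2 inside the untreated range, and fell by 0.92 ± 0.20 (adjusted p = 0.0309).

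Several members had large estimates without a call. Fasn differed by -1.20 ± 0.30 (adjusted p = 0.0577), Hsd17b7, a 3-ketosteroid reductase, by -1.05 ± 0.28 (adjusted p = 0.0901) and Cyp51 by -0.98 ± 0.26 (adjusted p = 0.0848). Cyp51 read 7.01, 7.39 and 7.99 in TM+ DCs of sTM cultures, against 7.65, 7.47, 9.30 and 9.21 in untreated ones. Only the 2 untreated arrays of experiment 4 lay clear of the sTM arrays of all experiments. Fasn and Hsd17b7 showed the same split, with untreated levels of 10.49 and 10.52 for Fasn and 9.36 and 9.22 for Hsd17b7 in experiment 4, against 8.76 and 7.81 for their highest sTM arrays. Within experiment 3 the untreated arrays of each of these genes also lay above the sTM arrays, by less. Cyp51, Fasn and Hsd17b7 differed by -0.47, -0.54 and -0.54 in experiment 3 and by -1.31, -1.84 and -1.68 in experiment 4. Stard4 (-0.43 ± 0.11, adjusted p = 0.0563) and Abca1 (0.46 ± 0.12, adjusted p = 0.0607) also missed the threshold, Abca1 with a positive sign.

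**Figure D3:**
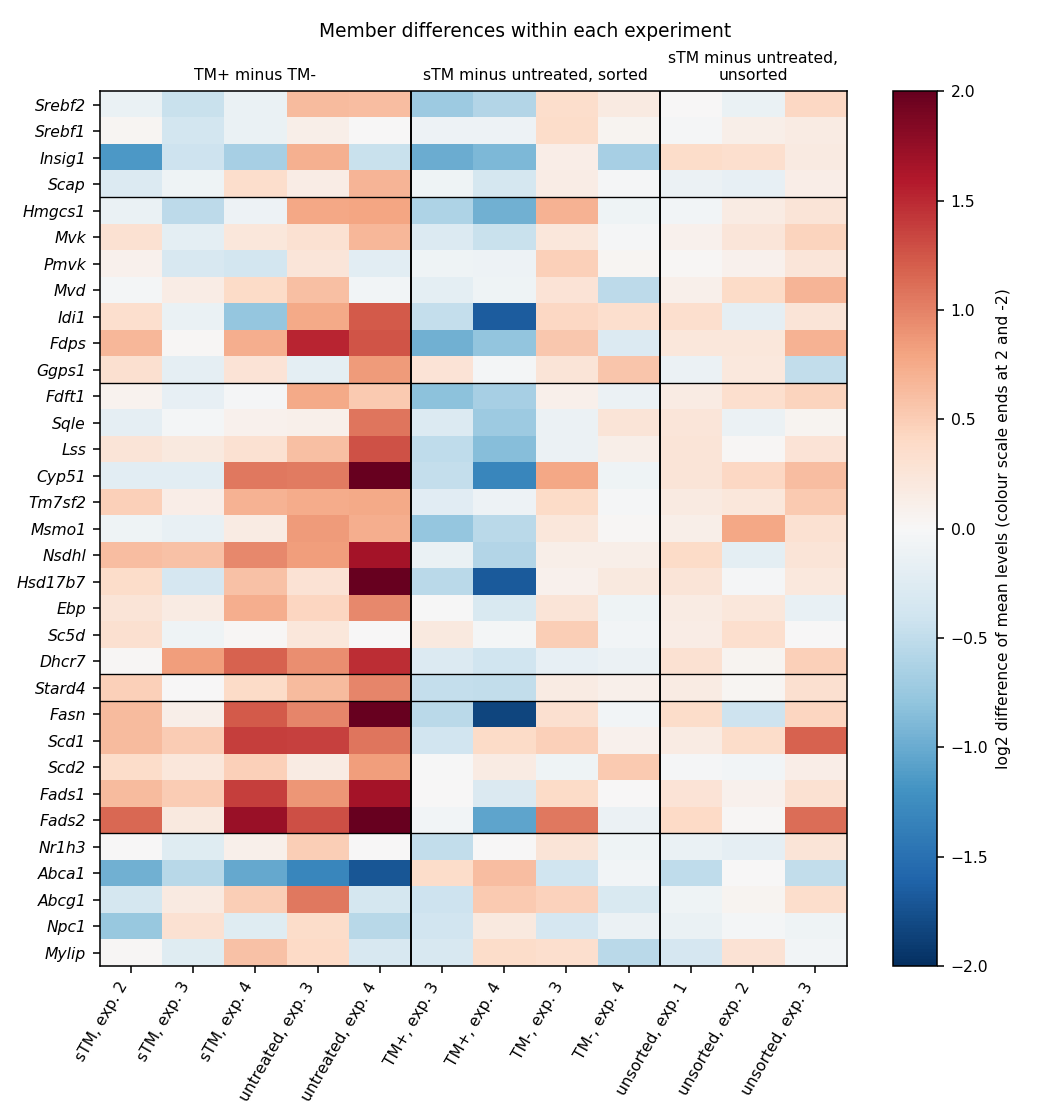
Difference of mean log2 levels within each experiment (columns) for the 33 measured members (rows, grouped by role), with red above 0 and blue below 0: TM+ minus TM- on the left, sTM minus untreated in sorted DCs in the middle and in unsorted DCs on the right. In TM+ DCs sTM gave lower means for 29 members in experiment 3 and 26 in experiment 4.

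Within experiments, sTM minus untreated was below 0 in TM+ DCs for 29 of 33 members in experiment 3, where 63.5% of all genes were below 0, and for 26 of 33 in experiment 4, where 50.7% were. Over the 23 regulator, mevalonate, sterol and transport genes the counts were 21 and 23. The efflux genes differed between the experiments: 4 of 5 had lower means with sTM in experiment 3, and 5 of 5 had higher means in experiment 4. The number of calls depended on few arrays. The counts that follow are given without the share of all genes called in the same fit. A change in the members is thus not told apart from a change over all genes. It was 2 without the array 2 of experiment 3 of TM+ DCs from sTM cultures, 2 without the array 1 of experiment 4 from untreated TM+ DCs, 3 without its partner there, 4 without the array 1 of experiment 3 of TM+ DCs from sTM cultures, and 2 without experiment 2. Without the TM- array that stood apart it was 9, with 1 member higher.

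Markers of other cells moved with this comparison too. Of 11 granulocyte markers, 4 were lower in TM+ DCs of sTM cultures, Ltf (-2.19 ± 0.37, adjusted p = 0.009), Elane (-0.58), Camp (-1.28) and S100a9 (-1.91). Of the 11 estimates 3 were above 0, up to 0.46. The summed intensity of all 11 was 18206 to 22303 in sTM cultures and 18134 to 28782 in untreated ones. The sums were 20927 and 21142 with sTM and 27931 and 28782 without in experiment 4, and 18206 and 19772 with sTM and 18134 and 19055 without in experiment 3. Only experiment 4 thus showed lower sums, in which Lcn2 and Mmp8 were the brightest genes (average log2 levels 13.18 and 12.72). Ltf and Elane were lower on every sTM array (highest 9.86 and 6.46) than on every untreated array (lowest 9.98 and 6.61). They were thus lower in experiment 3 as well, while Camp and S100a9 overlapped over all experiments. None of the 7 mast cell, basophil and eosinophil markers was called, but all 7 estimates were below 0 (median -0.52). Their sums were 656 and 647 with sTM and 1584 and 1581 without in experiment 3, and 1037 and 932 with sTM and 2426 and 2319 without in experiment 4, lower in both, while the sTM arrays of experiment 2 were at 1922 and 1961. The 9 interferon-stimulated genes were not called either, with all 9 estimates above 0 (median 1.68) and sums that went opposite ways, 13645 and 14810 with sTM and 1918 and 1885 without in experiment 3, and 2591 and 2387 with sTM and 3440 and 3353 without in experiment 4. None of the 8 cell division genes was called (median -0.31), nor any of the 13 further synthesis genes or the 13 further cholesterol handling genes. The part of these markers in the changes of the members was not tested.

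In TM- DCs sTM had 0 members called higher and 0 lower, where limma called 0% of all genes either way (507 genes were higher and 215 lower at an unadjusted p under 0.05). The member estimates ran between -0.20 (Abca1) and 0.47 (Cyp51), with 26 of 33 above 0. Of all 19938 genes, 11910 were above 0 as well. In experiment 3, 27 of 33 members averaged higher with sTM, where 66.1% of all genes did, and in experiment 4, 13 of 33, where 44.5% did. Srebf2 was at 9.46, 9.67 and 9.96 in TM- DCs of sTM cultures, against 9.47, 9.33, 9.65 and 9.68 in untreated TM- DCs. These levels overlapped over all experiments, though within experiments 3 and 4 the sTM arrays lay above the untreated ones. The difference was 0.22 ± 0.099 and was not called.

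Whether the sTM effect differed between the fractions was tested as an interaction, the effect in TM+ DCs minus that in TM- DCs. Only Srebf2 was called, at -0.86 ± 0.14 (95% interval -1.14 to -0.58, adjusted p = 0.0234), where 0.01% of all genes were called lower and 0% higher (713 and 514 genes at an unadjusted p under 0.05). The call was lost in 14 of the 31 alternative settings, among them the fit without experiment 2 and 10 fits that left out a single array. The next members by p were Hmgcs1 (-1.04 ± 0.19, adjusted p = 0.109), Lss (-0.68 ± 0.15, adjusted p = 0.179), Idi1 (-1.18 ± 0.27), Fdps (-0.91 ± 0.21) and Abca1 (0.66 ± 0.16), the last 3 with an adjusted p of 0.183, then Cyp51 (-1.45 ± 0.35, adjusted p = 0.216) and Stard4 (-0.52 ± 0.15, adjusted p = 0.331). All 23 regulator, mevalonate, sterol and transport genes had estimates below 0, and 31 of all 33 members did, as did 12056 of the 19938 genes tested. Leaving out the TM- array that stood apart gave 2 members lower. For Hmgcs1, TM- DCs had 8.80, 8.94 and 9.37 in sTM cultures, against 8.46, 8.32, 8.92 and 9.11 in untreated ones, so its levels overlapped there while they were apart in TM+ DCs.

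Set side by side on each array, synthesis and efflux genes gave the following. The average log2 level of the 23 regulator, mevalonate, sterol and transport genes was 8.63 ± 0.15 in TM+ DCs of sTM cultures (SD, n = 6) and 9.07 ± 0.30 in untreated TM+ DCs (SD, n = 4). In TM- DCs it was 8.53 ± 0.09 with sTM (n = 6) and 8.36 ± 0.13 without (n = 4). The 5 efflux genes averaged 9.53 ± 0.14 in TM+ DCs with sTM and 9.53 ± 0.50 without, and 9.71 ± 0.20 and 9.72 ± 0.05 in TM- DCs. The spread in untreated TM+ DCs came from the experiments: efflux was 9.96 and 9.96 in experiment 3 and 9.11 and 9.08 in experiment 4, while synthesis was 8.80 and 8.83 in experiment 3 and 9.39 and 9.26 in experiment 4. Synthesis minus efflux was higher in TM+ than in TM- DCs by 0.53 on average over the experiments and treatments. It differed by -0.53 between sTM and untreated TM+ DCs and by 0.21 between sTM and untreated TM- DCs. The value in TM+ DCs was -0.94 without experiment 3 and -0.12 without experiment 4, so its size rested on experiment 4.

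**Figure D4:**
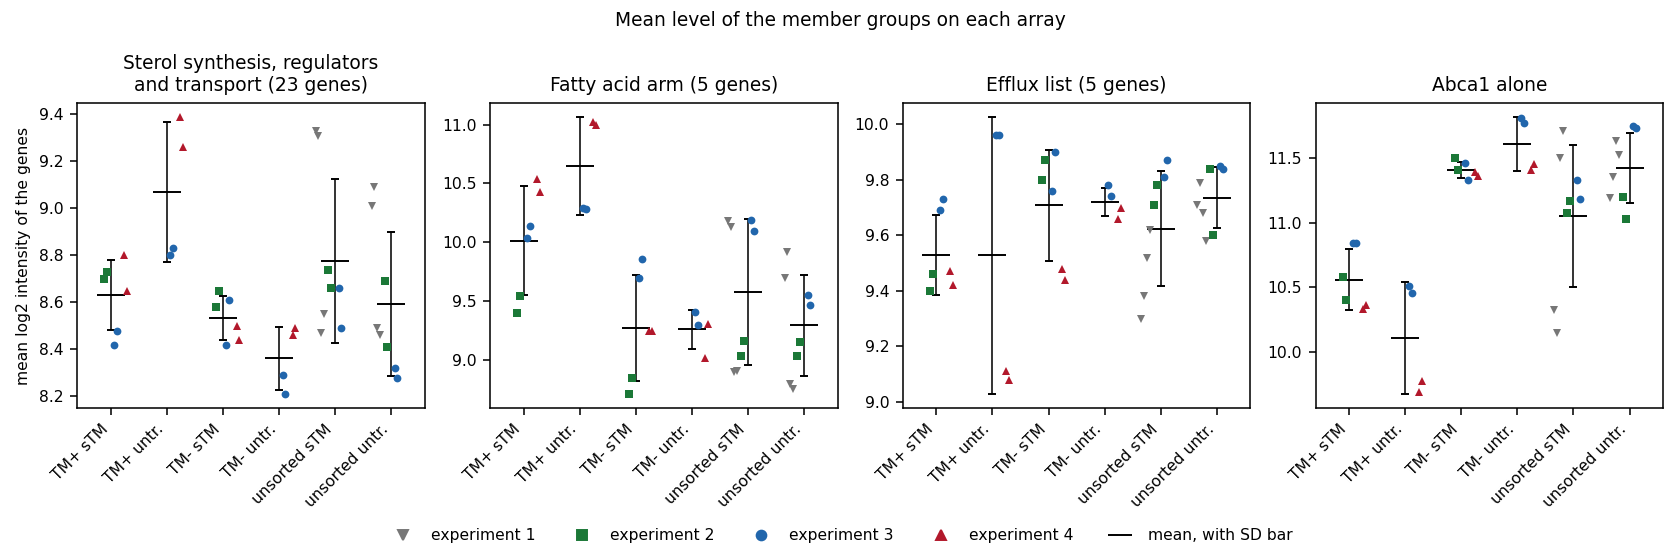
Mean log2 intensity (y axis) of 3 groups of members and of Abca1 alone on each of the 36 arrays, by fraction and treatment (x axis); points are arrays, colors and shapes mark experiments, and lines with bars give the mean and SD. Untreated TM+ arrays of experiment 4 have the highest synthesis means of the sorted arrays, 9.39 and 9.26, and the lowest efflux means, 9.11 and 9.08.

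The sorted fractions were also set against unsorted DCs in experiments 2 and 3, which held both. TM+ and TM- DCs were compared with the same unsorted arrays. Unsorted DCs hold both fractions, and in the paper's flow cytometry TM+ DCs were a small share of them. Few differences of TM- from unsorted DCs are thus built into the comparison. That of TM+ with unsorted DCs is not independent of TM+ against TM- DCs. TM+ DCs had 9 members higher and 1 lower, where 7.26% of all genes were higher and 3.47% lower. The 9 were Fdps, Idi1, Nsdhl, Cyp51, Ebp, Fads1, Fads2, Fasn and Scd1, between 0.36 (Ebp and Scd1) and 0.67 (Fdps, adjusted p = 0.000442), and the lower one was Abca1 (-0.80 ± 0.099, adjusted p = 5.49e-06). TM- DCs had 0 members higher and 1 lower, where 0.502% of all genes were higher and 0.431% lower. That member was Scd1, at -0.60 ± 0.11 (adjusted p = 0.0068), and its call was lost without either untreated TM- array of experiment 3. Without the TM- array that stood apart, 2 members were lower in TM- DCs. Centering on the 75th percentile gave 4 higher and 1 lower for TM+ DCs (5.06% and 5.41% of all genes) and 2 lower for TM- DCs (0.36% of all genes higher and 0.59% lower), and quantile normalization gave 5 higher for TM+ DCs (5.92% of all genes, with 4.61% lower). Without the array 1 of experiment 3 from untreated TM+ DCs, 3 members were higher in TM+ DCs, and without its partner 5 were. Within experiment 3, 31 of 33 members averaged higher in untreated TM+ DCs than in untreated unsorted DCs, where 60.9% of all genes did, and 8 of 33 averaged higher in TM+ DCs than in unsorted DCs of sTM cultures, where 37.6% did.

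In unsorted DCs sTM had 0 members called higher and 0 lower, where 0% of all genes were called either way (389 higher and 551 lower at an unadjusted p under 0.05). The estimates were above 0 for 27 of 33 members and for 10740 of all 19938 genes. Their median was 0.18 over the members and 0.01 over all genes. The following values are those of the members. They ran between -0.37 (Abca1) and 0.49 (Fads2). Srebf2 had a lowest, median and highest level of 9.45, 9.57 and 9.94 in unsorted DCs of sTM cultures, against 9.41, 9.56 and 9.68 in untreated ones, and Abca1 had 10.14, 11.17 and 11.71, against 11.03, 11.44 and 11.75. The treatments overlapped for both genes. By experiment, 22, 23 and 27 of 33 members averaged higher with sTM in experiments 1, 2 and 3, where 50.3%, 50.9% and 63.6% of all genes did. In experiment 1 same-numbered arrays of both treatments deviated together (r between 0.564 and 0.746), though 3 of the 8 arrays correlated best with another number, and in experiments 2 and 3 r was 0.026 and 0.133. Within same-numbered arrays Abca1 differed by -0.87, -1.20, -0.13 and 0.19 in experiment 1, by -0.13 and 0.14 in experiment 2 and by -0.43 and -0.54 in experiment 3. It was lower with sTM in 6 of 8 such pairs. With the replicate block, limma called 11 genes higher and 42 lower but 0 members. Of the members 14 had an unadjusted p under 0.05 with the block and 3 without. The matching count of all genes with the block is not given here. The lowest adjusted p of a member with the block was 0.0944 (Cyp51), and Abca1 stood at -0.37 ± 0.13 (adjusted p = 0.275).

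The widest spread within unsorted DCs lay inside experiment 1, between arrays of the same treatment. The average log2 level of the 23 regulator, mevalonate, sterol and transport genes was 9.33 and 9.31 on arrays 1 and 2 and 8.47 and 8.55 on arrays 3 and 4 of sTM cultures. In untreated cultures it was 9.01 and 9.09 on arrays 1 and 2 and 8.49 and 8.46 on arrays 3 and 4. Arrays 1 and 2 were thus high and arrays 3 and 4 low in both treatments. Abca1 ran the other way, at 10.32 and 10.14 on arrays 1 and 2 and 11.50 and 11.71 on arrays 3 and 4 of sTM cultures, and at 11.19, 11.35, 11.63 and 11.52 in untreated cultures. Msmo1, the C4 methylsterol oxidase, named here after its values were seen, had 11.72, 11.56, 10.26 and 10.44 in sTM cultures and 11.39, 11.63, 10.36 and 10.14 in untreated ones. Other lists moved with it: the summed intensity of the cell division genes was 7842, 6515, 1837 and 2078 on arrays 1 to 4 of sTM cultures and 4314, 4715, 1882 and 1845 in untreated cultures. The sums of mast cell, basophil and eosinophil markers were 1989, 2106, 406 and 429 with sTM and 1400, 1676, 391 and 416 without, and those of granulocyte markers 21163, 21396, 14460 and 14623 with sTM and 20573, 22850, 14091 and 14595 without. Interferon-stimulated genes ran the other way, at 7007, 6208, 17111 and 18692 with sTM and 14114, 15396, 18753 and 19397 without. The labels give no batch that separates these arrays, and the part of those genes in the split was not tested.

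**Figure D5:**
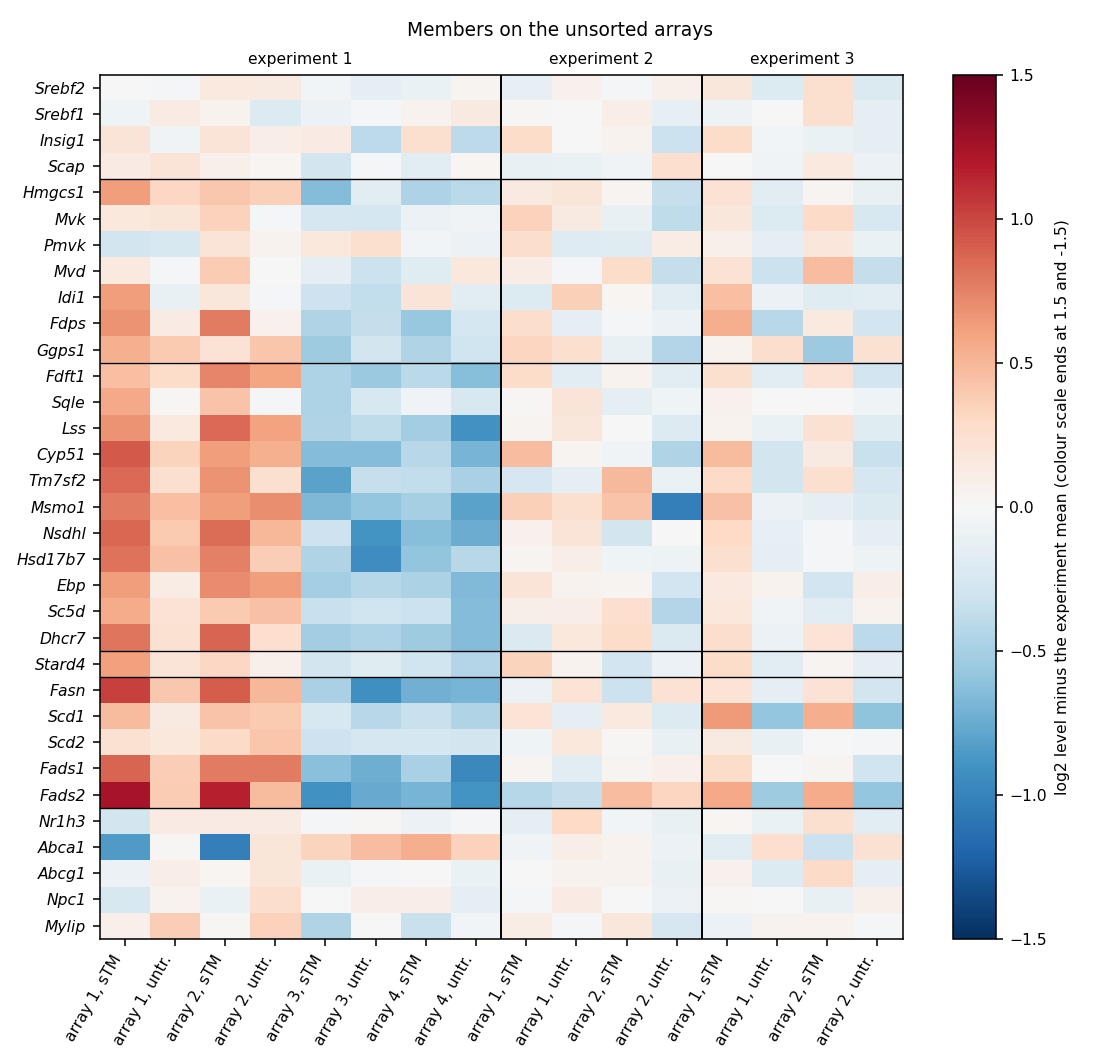
Log2 level minus the mean of its experiment for the 33 measured members (rows, grouped by role) on the 16 arrays of unsorted DCs (columns), with red above and blue below the mean. In experiment 1 arrays 1 and 2 lie above arrays 3 and 4 for most synthesis genes under both treatments, and Abca1 lies below.

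Genes whose pattern over the 20 sorted arrays was most like that of Srebf2 were found by Pearson r on levels centered within each experiment and fraction, as a description only. They were Pxdc1 (r = 0.951), Fam234b (0.947), Nup210 (0.943), Mtmr4 (0.940) and Gstk1 (0.932), none of them a member. Among the members Hmgcs1 (0.908) and Fdps (0.902) came nearest, at ranks 17 and 19 of 19937 genes, and 4 of the 32 other members were in the top 100 and 13 in the top 500. The median r of the members was 0.634, and Abca1 had the lowest, -0.883. For Fdft1 the nearest genes were Pglyrp1 (0.940), Sf3a2 (0.935), Cyp21a1 (0.923), Dctpp1 (0.917) and A4galt (0.914), with 5 of 32 members in the top 100 and Abca1 at -0.75. The arrays compared share experiments and treatments.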

How the data were processed

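RNA from mouse bone marrow-derived DCs was measured on 36 Affymetrix Mouse Gene 1.0 ST arrays. The authors summarized and normalized the probes by RMA with Affymetrix Power Tools and deposited linear intensity values per transcript cluster, with array medians between 96.96 and 111.97. The sources used here do not state which arrays entered the same normalization. RMA shrinks the differences of dim genes, and precision is limited by how many arrays each group has.

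The deposited intensities of 35556 clusters were converted to log2. With the platform annotation, 21789 clusters had 1 gene symbol, 1621 had several and 12146 had none. The cluster with the largest average over all arrays stood for its symbol, which gave 19938 genes. Idi1 and Fdft1 had 2 clusters each. All 33 measured members carried the same symbol in RefSeq by gene ID.

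Differences were fitted with limma 3.58.1 and statmod 1.5.0 in R 4.3.3 over the 20 sorted arrays and over the 16 unsorted arrays, with experiment as a random block (correlation 0.396 and 0.375), and over the 20 arrays of experiments 2 and 3 for sorted against unsorted DCs, with experiment as a fixed factor. p-values were adjusted by the Benjamini-Hochberg method over all 19938 genes, with a threshold of 0.05. Alternatives changed the experiment term, array weights, the filter on dim genes, the scaling, the choice of cluster, single arrays, whole experiments and a replicate block. All members could be named. Values per array were given for members called for treatment or interaction, the 8 smallest interaction p-values and the 2 largest sorting effects per role, and up to 4 genes by p of other lists. The members and lists were chosen with earlier results of these data known. On simulated data for the treatment effect in TM+ DCs over 19938 genes, 77% of 100 genes changed by 0.5 (log2) were called. Of 100 genes changed by 1, 99% were called, and 12 unchanged genes were called too. On the arrays themselves, Fasn (-1.20), Hsd17b7 (-1.05) and Cyp51 (-0.98) were not called for sTM in TM+ DCs. Their differences were larger in experiment 4 than in experiment 3. How often a gene is called when its difference varies between experiments was not tested.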

Additional observations from a re-analysis of the deposited data

Results flagged for a closer look

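Of 198 groups of arrays examined, 3 held a highest or lowest array far from the others, and chance alone gives about 5% of groups. Fasn was 8.45 on array 2 of experiment 3 in TM- DCs of sTM cultures, where the next highest array of the group was at 7.75. It was 7.14 on array 1 of experiment 4 in untreated TM- DCs, where the next lowest was at 7.76. Nr1h3 was 6.60 on array 2 of experiment 2 in untreated unsorted DCs, where the next lowest was at 6.87. The effect of sTM on Srebf2 differed between the fractions, with an interaction of -0.86 on the log2 scale (limma adjusted p = 0.0234).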

How the results depend on the processing

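Of 667 alternative values of the counts and group averages, 594 stayed near the value reported, 73 moved and 0 reversed; of 2518 values for single genes, 2230 kept their direction and call, 273 lost it, 13 gained it and 2 reversed, namely Idi1 between the fractions with array weights (-0.092) and Sqle without experiment 4 (-0.003). Counts of members are given as called higher and lower. Except for the replicate block in unsorted DCs, the share of all genes called in these settings is not given beside them. The same holds above where single arrays or experiments were left out. A change in the members is thus not told apart from a change over all genes. With array weights 3 were lower between the fractions, 15 higher and 5 lower between them in sTM cultures, 1 higher and 9 lower with sTM in sorted DCs, 15 lower in TM+ DCs, 2 and 2 in TM- DCs, and 5 lower for the interaction. Without any experiment term the fractions in sTM cultures gave 4 and 1, sTM in TM+ DCs 2 lower, and the interaction 0; experiment as a fixed factor gave 1 lower with sTM in sorted DCs and 1 higher in TM+ DCs. Without experiment 2 the fractions in sTM cultures gave 5 higher, sTM in TM+ DCs 2 lower and the interaction 0. Without experiment 3 there were 3 lower between the fractions (2 in untreated cultures, with 14 higher in sTM cultures), 5 lower with sTM in sorted DCs, 1 and 11 in TM+ DCs, and 1 and 8 for the interaction; synthesis minus efflux was 0.74 between the fractions and -0.942 with sTM in TM+ DCs. Without experiment 4 there were 13 higher between the fractions (2 in sTM cultures), 4 lower with sTM in TM+ DCs, 1 higher in TM- DCs and 6 lower for the interaction, and synthesis minus efflux was 0.311 and -0.121. Centering on the 75th percentile gave 2 lower between the fractions, 1 lower with sTM in sorted DCs, 12 lower in TM+ DCs, and 4 higher (TM+) and 2 lower (TM-) against unsorted DCs. Quantile normalization gave 1 lower with sTM in sorted DCs, 5 higher (TM+) and 2 lower (TM-) against unsorted DCs, and 0.463 for synthesis minus efflux between the fractions. Leaving out dim genes gave 1 higher with sTM in TM+ DCs, using all clusters gave 4 lower there and 0 for the interaction, and experiment 3 alone gave 2 lower for TM- against unsorted DCs. Leaving out single arrays gave 1 to 2 lower between the fractions, 0 to 1 higher and 2 to 9 lower with sTM in TM+ DCs, 0 to 2 lower for the interaction, and 3 to 11 higher (TM+) and 0 to 2 lower (TM-) against unsorted DCs. Same-numbered unsorted arrays of experiment 1 correlated between 0.564 and 0.746 in their deviations from the group means. Not every array there correlated best with its own number, so a pairing by number is not established. The other experiments held 2 arrays a group, with correlations between -0.544 and 0.45. With the replicate block, 20 members were higher between the fractions, 8 lower with sTM in TM+ DCs, 0 for the interaction and 0 either way with sTM in unsorted DCs, where 11 of all genes were higher and 42 lower. The causes of these shifts were not tested.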
